A study of Mus musculus with 6 samples.

Results

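The core transcription factors of fat cell formation described here are *Pparg*, *Rxra*, *Cebpa*, *Cebpb*, *Cebpd*, *Cebpg*, *Ddit3*, *Gata2* and *Gata3*. They were taken by symbol and matched through Ensembl gene identifiers to the GENCODE M21 annotation of GRCm38, which gave 9 genes of the 47069 in the deposited tables. RNA was sequenced from the inguinal subcutaneous white adipose tissue (SC-WAT) of 6 female C57BL/6 mice (C57BL/6J in the methods) aged 2 weeks, 3 Egr1+/+ and 3 Egr1-/-. The comparison asks how the tissue's RNA differs when the zinc finger transcription factor EGR1 is missing during the growth of the fat pad.

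The mutant *Egr1* allele is a targeted one. It carries a *LacZ* insertion near the 5' end of the transcript, before the coding sequence, and its reading frame is shifted before the zinc fingers that bind DNA. It is inactive in every cell of the animal from conception, so the effects of loss in fat cells, their progenitors and other tissues cannot be told apart. Such an allele can still be transcribed. Mice of both genotypes came from crosses of heterozygotes and the labels give no other allele or treatment. In bulk tissue, fewer cells of a type and less RNA per cell cannot be told apart.

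C/EBP beta and C/EBP delta, the products of *Cebpb* and *Cebpd*, are the early factors of fat cell differentiation. They switch on *Pparg* and *Cebpa*, whose products then maintain each other and drive the genes of the mature fat cell, with PPAR gamma binding DNA as a pair with RXR alpha, the product of *Rxra*. GATA2 and GATA3 hold preadipocytes back from this step, and CHOP, the product of *Ddit3*, and C/EBP gamma pair with the other C/EBP proteins.

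The libraries held between 29661984 and 42357981 counts per mouse, of which mitochondrial genes took 50.0 to 57.4% in Egr1+/+ and 54.9 to 66.3% in Egr1-/- mice. *Egr1* itself measured 10.3, 8.02 and 16.5 CPM (read counts scaled to a common library total) in the 3 Egr1+/+ mice and 3.09, 2.71 and 1.84 CPM in the 3 Egr1-/- mice, in replicate order, as in all lists of values given here. The genotypes did not overlap, in the direction of the labels, and some transcript remained in each Egr1-/- mouse. The log2 fold change, always Egr1-/- over Egr1+/+, was -2.19 (SE 0.299, adjusted p = 0.0878 in edgeR, adjusted p = 3.6e-10 in DESeq2). Even this large difference missed the edgeR threshold of 0.05 after adjustment over the 17667 genes tested, so a miss by a member does not show that its levels were alike.

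All 9 factors were detected in every mouse and passed the filter on low counts. None of the 9 passed edgeR after adjustment, where 0.017% of all genes tested were called, all of them higher. At an unadjusted p under 0.05, edgeR called 1 of 9 (*Cebpb*, higher), against 10.7% of all genes, and DESeq2 after adjustment called the same gene, against 2.89% of the genes it adjusted. *Cebpb* was also the 1 member of 9 whose genotypes did not overlap in CPM, against 16.3% of all genes. Of the 9 fitted differences 5 were above and 4 below 0, and their log2 fold changes had a median of 0.07 beside 0.0011 for all genes.

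**Figure D1:**
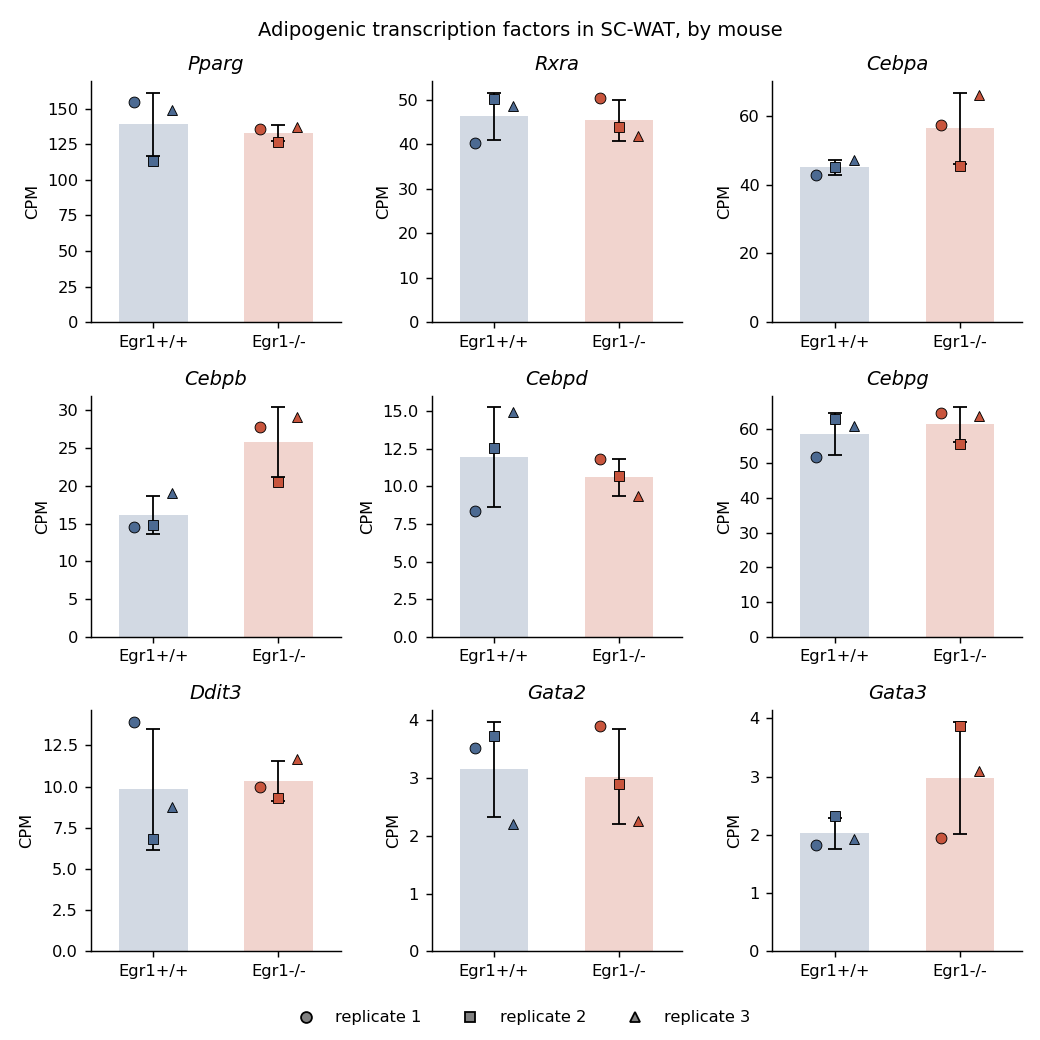
CPM of each factor (y axis, a scale for each panel) in the 3 Egr1+/+ and 3 Egr1-/- mice, with a point for each mouse and the group mean and SD. In the *Cebpb* panel the Egr1-/- mice, at 20.5 to 29.1 CPM, lie above the Egr1+/+ mice at 14.5 to 19.0 CPM, and in the other panels the genotypes overlap.

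Promoter sequence is shown for the differentiation cascade itself: *Cebpb*, as the member whose genotypes separated, and *Cebpa* and *Pparg*, its known targets. The windows are RefSeq sequence of GRCm38.p6, from 250 bases before to 50 after an annotated start, read on the plus strand. Capitals mark TGACG on either strand, the core of the site for the CREB factors that are known to switch on *Cebpb*, in the first window (chr2:167688665-167688964). They mark the TATA word TATAAA in the second (chr7:35119043-35119342), and TTGCNNAA on either strand, a shortened C/EBP site, in the window of the downstream *Pparg* start (chr6:115421816-115422115), which is the start of PPARG2, the fat cell isoform.
Cebpb: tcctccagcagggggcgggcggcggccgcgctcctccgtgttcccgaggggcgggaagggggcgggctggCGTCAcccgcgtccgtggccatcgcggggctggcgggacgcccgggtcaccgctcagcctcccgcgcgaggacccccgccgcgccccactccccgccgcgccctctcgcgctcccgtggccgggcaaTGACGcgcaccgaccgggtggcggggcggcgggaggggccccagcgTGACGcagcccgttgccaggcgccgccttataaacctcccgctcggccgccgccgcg
Cebpa: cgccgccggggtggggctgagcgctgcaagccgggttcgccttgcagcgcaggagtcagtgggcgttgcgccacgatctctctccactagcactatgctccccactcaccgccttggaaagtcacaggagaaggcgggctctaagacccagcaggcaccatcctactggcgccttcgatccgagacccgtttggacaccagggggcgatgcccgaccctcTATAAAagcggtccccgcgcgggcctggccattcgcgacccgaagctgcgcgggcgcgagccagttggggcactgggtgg
Pparg, downstream start: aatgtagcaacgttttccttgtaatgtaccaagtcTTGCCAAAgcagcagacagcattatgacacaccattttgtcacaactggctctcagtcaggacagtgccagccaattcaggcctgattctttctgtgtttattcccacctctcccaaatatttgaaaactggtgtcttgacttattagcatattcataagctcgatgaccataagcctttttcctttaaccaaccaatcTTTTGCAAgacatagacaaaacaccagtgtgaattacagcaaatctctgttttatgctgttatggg

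TGACG occurred 3 times in the *Cebpb* window, at bases -180 to -176, -53 to -49 and -7 to -3 from the start. It was held by 1 of the 12 windows of the 8 members with one, against 20.8% of all 32851 promoter windows. TATAAA stood at -30 to -25 in *Cebpa*. Counted on either strand, it was held by 3 of the 12 member windows, against 13.6% of all windows. In *Cebpb* the same word lay at 22 to 27, after the annotated start. In another *Pparg* window, not printed, it lay on the other strand at -29 to -24. TTGCNNAA occurred at -215 to -208 and -16 to -9 in the downstream *Pparg* window. It was held by 1 of the 12 member windows, against 10.8% of all windows. A different word was marked in each printed window, each where it was found. The EGR1 words GCGTGGGCG and GCGGGGGCG, on either strand, were in 0 of the 12 windows of the 8 members with one, against 1139 of all 32851 windows (3.47%). Some words are short, matches are only a description of letters, and the absence of a word from these windows says nothing of EGR1 elsewhere. The *Cebpb* window was 80.7% G and C, the *Cebpa* window 67.3% and the downstream *Pparg* window 40.3%, beside a median of 52.7% over all windows.

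*Cebpb*, whose promoter window leads those printed, lies at chr2:167688915-167690418 on the plus strand and has a single exon. Its RNA measured 14.5, 14.8 and 19.0 CPM in Egr1+/+ mice (16.1 ± 2.53, SD, n = 3) and 27.8, 20.5 and 29.1 CPM in Egr1-/- mice (25.8 ± 4.63, SD, n = 3), from 444 to 926 reads per mouse. The lowest Egr1-/- mouse stood just above the highest Egr1+/+ mouse, and the other 2 stood well apart. The fitted level was 1.60-fold higher in Egr1-/- tissue (95% CI 1.23 to 2.08), a log2 fold change of 0.68 (SE 0.168). The unadjusted p of 0.0029 ranked 223 among the 17667 genes, which left an adjusted p of 0.226 in edgeR, whereas DESeq2 gave an adjusted p of 0.0200. The exact two-sided permutation p over the 6 mice was 0.1, the smallest that 3 against 3 allows. When CPM was scaled by total counts alone, with no correction for composition, the genotypes overlapped and the log2 fold change was 0.51, where the median of all genes moved to -0.15.

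*Cebpb* overlaps *Tmem189* on the other strand, which shares 312 of its exon bases (20.7%), and whether counting used strand is not given in the sources used here. *Tmem189* had 457, 449 and 657 reads in Egr1+/+ and 472, 408 and 424 reads in Egr1-/- mice, with a log2 fold change of -0.08 (adjusted p = 0.848 in edgeR). The fitted difference of *Tmem189*, taken over its whole gene, was near 0 where that of *Cebpb* was 0.68. The part of the shared bases in the *Cebpb* counts was not tested.

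*Cebpa*, which maintains the differentiated fat cell, lies at chr7:35119293-35121928 on the plus strand, also as a single exon. It measured 42.9, 45.1 and 47.3 CPM in Egr1+/+ mice (45.1 ± 2.21, SD, n = 3) and 57.6, 45.5 and 66.3 CPM in Egr1-/- mice (56.5 ± 10.4, SD, n = 3). Of the Egr1-/- mice, 2 stood above all Egr1+/+ mice and replicate 2 lay within their range. The log2 fold change was 0.32 (SE 0.145, 95% CI -0.0039 to 0.65), with an unadjusted p of 0.0522 and an adjusted p of 0.474 in edgeR (0.393 in DESeq2). The interval runs from no difference to a level 1.57-fold higher, and the log2 value was 0.19 without Egr1-/- replicate 3 and 0.17 under total counts.

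*Cebpd*, the partner of *Cebpb* in the early step, lies at chr16:15887286-15891031 on the plus strand as a single exon. Its RNA measured 8.35, 12.6 and 14.9 CPM in Egr1+/+ mice and 11.8, 10.7 and 9.34 CPM in Egr1-/- mice. All 3 Egr1-/- mice lay inside the Egr1+/+ range, and the log2 fold change was -0.17 (95% CI -0.64 to 0.30, adjusted p = 0.829 in edgeR). *Spidr*, on the other strand, shares 562 of its exon bases (15.0%), and it had the same log2 fold change of -0.17.

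*Cebpg* and *Ddit3* code for the C/EBP members that mostly act by pairing with the others, and the genotypes overlapped for both. *Cebpg* (chr7:35046422-35056573, minus strand) measured 51.8, 62.9 and 60.9 CPM in Egr1+/+ and 64.6, 55.6 and 63.7 CPM in Egr1-/- mice. Its log2 fold change was 0.07 (95% CI -0.21 to 0.34, adjusted p = 0.888 in edgeR). *Ddit3* (chr10:127290774-127296288, plus strand), which is switched on by endoplasmic reticulum stress, measured 13.9, 6.83 and 8.75 CPM in Egr1+/+ and 9.97, 9.33 and 11.7 CPM in Egr1-/- mice. Egr1+/+ replicate 1 was the highest of the 6 mice for *Ddit3*, and without it the log2 fold change went from 0.07 to 0.39, still without passing edgeR. *Mars*, on the other strand, shares 68 of its exon bases (3.97%) and had a log2 fold change of 0.10.

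Because C/EBP proteins act as pairs, the level of *Cebpb* was also set against that of each relative within the same mouse. The measure was the log2 ratio of read counts, with 0.5 added to each count. *Cebpb* to *Cebpa* was -1.56, -1.61 and -1.31 in Egr1+/+ and -1.05, -1.15 and -1.19 in Egr1-/- mice, a difference of 0.37. *Cebpb* to *Cebpd* was 0.80, 0.24 and 0.35 in Egr1+/+ and 1.24, 0.94 and 1.64 in Egr1-/- mice, a difference of 0.81. *Cebpb* to *Cebpg* was -1.83, -2.09 and -1.68 in Egr1+/+ and -1.22, -1.44 and -1.13 in Egr1-/- mice, a difference of 0.60. The genotypes did not overlap in these 3 ratios, although the gap between them was narrower than the SD of at least 1 genotype for *Cebpa* and *Cebpd*.

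For *Cebpb* to *Ddit3* the values were 0.06, 1.11 and 1.12 in Egr1+/+ and 1.48, 1.13 and 1.31 in Egr1-/- mice. The genotypes almost touched, and the difference of 0.54 became 0.19 without Egr1+/+ replicate 1. For each of the 4 ratios the exact two-sided permutation p was 0.1 (0.1 after Benjamini-Hochberg adjustment over the 4), the smallest value 3 against 3 can give. All 4 ratios share the *Cebpb* values and so are not separate evidence.

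**Figure D2:**
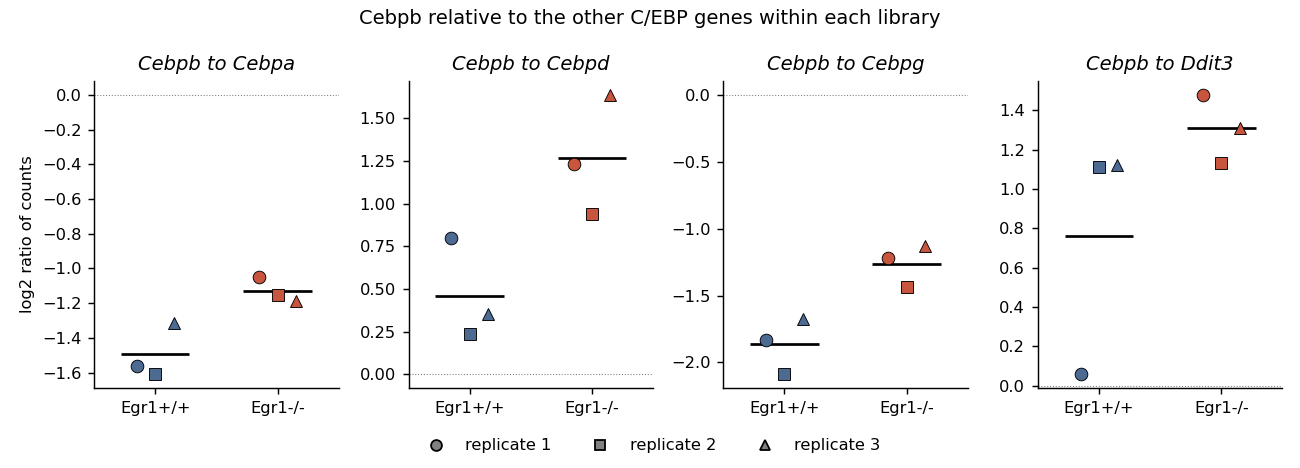
Log2 ratio of *Cebpb* to each of *Cebpa*, *Cebpd*, *Cebpg* and *Ddit3* in read counts, with 0.5 added to each count (y axis). Points are the Egr1+/+ and Egr1-/- mice and lines are group means. The ratio was higher in each Egr1-/- mouse than in any Egr1+/+ mouse, by the narrowest margin for *Ddit3* (1.13 against 1.12).

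*Pparg*, the gene of the nuclear receptor that commands fat cell differentiation, lies at chr6:115360951-115490399 on the plus strand. It measured 154.7, 113.4 and 149.0 CPM in Egr1+/+ mice (139 ± 22.4, SD, n = 3) and 135.5, 126.3 and 137.1 CPM in Egr1-/- mice (133 ± 5.85, SD, n = 3). The Egr1-/- values all fell within the Egr1+/+ range. The log2 fold change was -0.06 (SE 0.141, adjusted p = 0.907 in edgeR), and its 95% CI allows a level between 0.767 and 1.19 times that of Egr1+/+ tissue. Counts per gene do not separate the isoforms PPARG1 and PPARG2.

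Its DNA-binding partner *Rxra* (chr2:27676440-27762957, plus strand) measured 40.2, 50.2 and 48.6 CPM in Egr1+/+ and 50.5, 43.8 and 41.8 CPM in Egr1-/- mice. The ranges overlapped almost whole, with a log2 fold change of -0.03 (95% CI -0.32 to 0.26, adjusted p = 0.957 in edgeR).

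The GATA factors, which restrain preadipocytes, were the least abundant members, so counting error weighs more on them. *Gata2* (chr6:88193891-88207032, plus strand) had 121, 112 and 95 reads in Egr1+/+ and 130, 90 and 70 reads in Egr1-/- mice, or 3.52, 3.73 and 2.204 CPM against 3.90, 2.91 and 2.26 CPM. The ranges overlapped and the log2 fold change was -0.05 (95% CI -0.69 to 0.58, adjusted p = 0.965 in edgeR). *Gata2* is also made in endothelial and mast cells. The summed level of 12 endothelial markers, of which none was at 0 in all mice, was 491 to 586 CPM in Egr1+/+ and 463 to 681 CPM in Egr1-/- mice. The highest sum and the highest *Gata2* level were in the same mouse, Egr1-/- replicate 1.

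The summed level of 8 mast cell markers was 83.1 to 124.8 CPM in Egr1+/+ and 47.0 to 82.5 CPM in Egr1-/- mice. All 7 that were tested had lower fitted levels, 6 of them at an unadjusted p under 0.05 in edgeR, against 10.7% of all genes in either direction. The summed level of 11 stromal progenitor markers, such as *Pdgfra* and *Cd34*, was 999 to 1089 CPM in Egr1+/+ and 597 to 787 CPM in Egr1-/- mice. Of these, 8 of 11 were lower at an unadjusted p under 0.05 in edgeR, against the same 10.7% of all genes. The *Gata2* ranges overlapped all the same. The part of these cells in the *Gata2* level was not tested.

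*Gata3* (chr2:9857078-9890034, minus strand) had 63, 70 and 83 reads in Egr1+/+ and 65, 120 and 96 reads in Egr1-/- mice, or 1.83, 2.33 and 1.93 CPM against 1.95, 3.87 and 3.10 CPM. Egr1-/- replicates 2 and 3 stood above all Egr1+/+ mice and replicate 1 within them, for a log2 fold change of 0.55 (95% CI -0.09 to 1.19, adjusted p = 0.543 in edgeR). Without Egr1-/- replicate 2 it was 0.32. *Gata3* is also the master factor of type 2 T helper cells. The summed level of 12 T cell markers, none at 0 in all mice, was 122.8, 116.8 and 130.8 CPM in Egr1+/+ and 76.7, 230.0 and 153.3 CPM in Egr1-/- mice. The T cell sum was highest in the same Egr1-/- mice as *Gata3*. For comparison, 12 mammary epithelium markers summed to 53.9, 52.0 and 75.4 CPM in Egr1+/+ and 57.2, 49.0 and 49.4 CPM in Egr1-/- mice. The part of either cell type in the *Gata3* level was not tested.

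**Figure D3:**
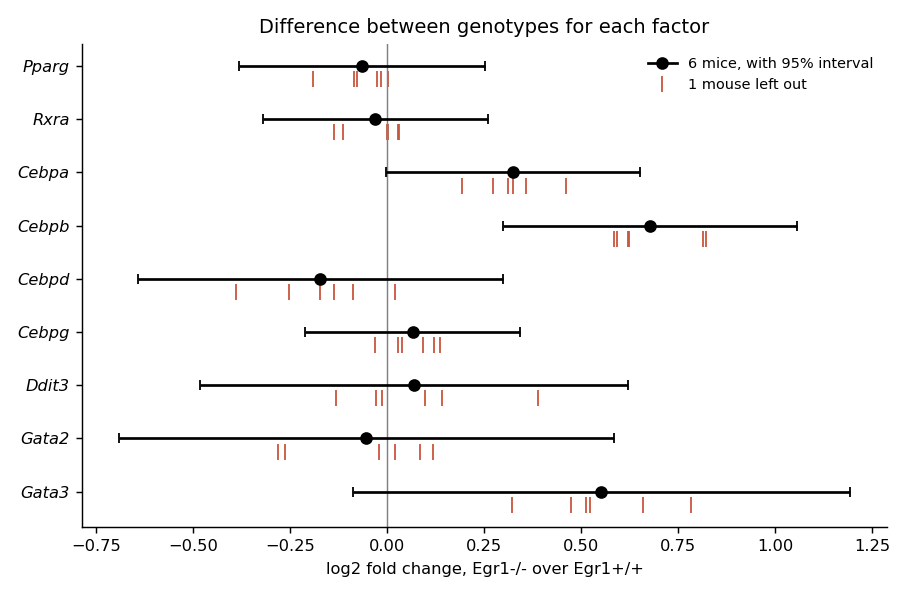
Log2 fold change of each factor, Egr1-/- over Egr1+/+ (x axis), from edgeR, with the 95% interval as a bar and the values with each mouse left out as ticks. The interval of *Cebpb* (0.30 to 1.06) lies above 0, those of the other 8 include 0, and the ticks of *Pparg*, *Rxra*, *Cebpd*, *Cebpg*, *Ddit3* and *Gata2* lie on both sides of 0.

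Levels of different genes were compared only as CPM per kilobase of annotated exon. By the mean of all 6 mice on this scale, the order from high to low was *Pparg*, *Cebpa*, *Cebpb*, *Cebpg*, *Rxra*, *Ddit3*, *Cebpd*, *Gata3* and *Gata2*. *Pparg* stood at 47.1 ± 7.58 (SD, n = 3) CPM per kilobase in Egr1+/+ and 45.0 ± 1.98 in Egr1-/- mice, above *Cebpa* at 17.1 ± 0.838 and 21.4 ± 3.95. *Cebpb* stood at 10.7 ± 1.68 CPM per kilobase in Egr1+/+ mice, beside *Cebpg* at 10.4, and at 17.2 ± 3.08 in Egr1-/- mice, beside 10.9 for *Cebpg*.

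At the foot of this scale *Gata2* had 0.584 CPM per kilobase in Egr1+/+ and 0.560 in Egr1-/- mice, and *Gata3* 0.510 and 0.748. The ranges of neighbours over the 6 mice were separate for *Pparg* above *Cebpa*, *Ddit3* above *Cebpd* (narrowly) and *Cebpd* above *Gata3*, and overlapped for the other 5 neighbouring pairs. The early factor *Cebpd* was thus well below *Cebpb* in both genotypes on this scale, at 3.19 and 2.83 CPM per kilobase. Part of the gap comes from exon length, 3746 bases for *Cebpd* and 1504 for *Cebpb*. In CPM the 2 genes stood at 11.9 and 16.1 in Egr1+/+ and at 10.6 and 25.8 in Egr1-/- mice. The lengths are those of GENCODE M21, whereas counting used an earlier release.

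**Figure D4:**
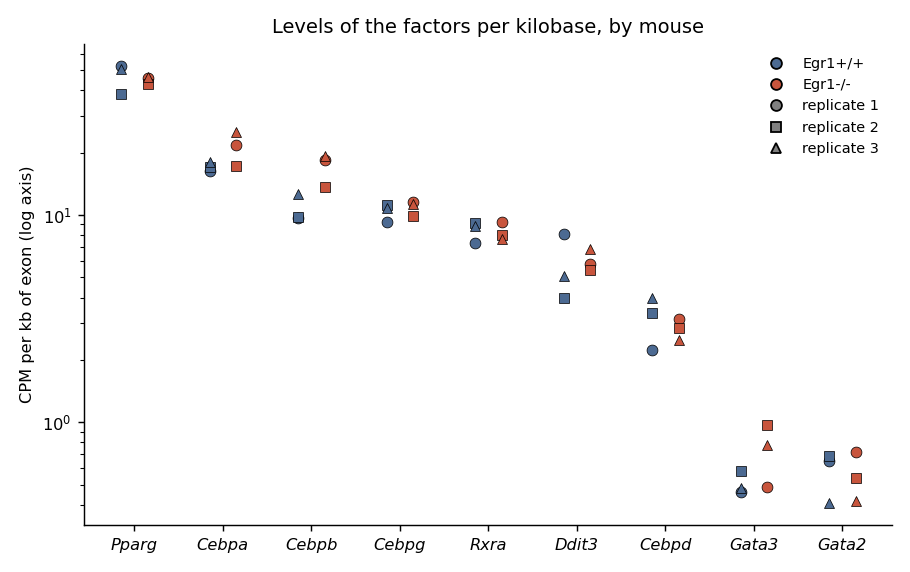
Level of each factor in CPM per kilobase of exon (log scale), ordered by the mean of the 6 mice, with a point for each Egr1+/+ and Egr1-/- mouse. *Pparg* lies highest, at group means of 47.1 and 45.0, and the GATA factors lowest, all group means between 0.510 and 0.748.

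The genes around the 9 factors were described through 6 lists: other promoters of fat cell formation, its inhibitors, the cofactors of PPAR gamma and C/EBP, the fat cell genes these drive, the integrated stress response upstream and downstream of *Ddit3*, and further basic leucine zipper partners. No gene of any list passed edgeR after adjustment. Scaling by total counts alone turned the list medians given below as above 0 to values below 0, with the median of all genes at -0.15, so directions are relative to all genes. The list medians are small and several moved by over 1.5 times with 1 mouse left out, as given with each.

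Among 21 other pro-adipogenic regulators 11 had higher and 10 lower fitted levels (median log2 fold change 0.08), and 1 of 21 had an unadjusted p under 0.05 in edgeR, against 10.7% of all genes. That gene was *Ppara*, the receptor that drives fatty acid oxidation, at 30.9, 22.9 and 27.3 CPM in Egr1+/+ and 42.2, 35.8 and 65.4 CPM in Egr1-/- mice. Its genotypes did not overlap, and its log2 fold change was 0.82 (SE 0.218, adjusted p = 0.236 in edgeR, 0.0126 in DESeq2). *Srebf1* (0.38), a driver of lipid synthesis, and *Stat5a* (0.29) followed by p without reaching 0.05.

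Among 21 anti-adipogenic regulators 7 had higher and 14 lower fitted levels (median log2 fold change -0.14, and -0.06 without Egr1-/- replicate 2), and 2 in each direction had an unadjusted p under 0.05 in edgeR, against 10.7% of all genes. *Klf2*, a repressor of *Pparg*, had a log2 fold change of 0.53 and *Foxo1*, another, of 0.41. *Wnt10b*, a secreted inhibitor of fat cell formation, had -0.88 from very low levels of 0.776 to 3.39 CPM. *Zfp521* had -0.31 and was named after its value was seen.

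Among 21 cofactors 17 had higher and 4 lower fitted levels (median log2 fold change 0.09, 0.16 without Egr1-/- replicate 1 and 0.06 without Egr1-/- replicate 2). The 4 of 21 at an unadjusted p under 0.05 in edgeR, against 10.7% of all genes, were all higher. *Ppargc1a*, the coactivator of PPAR gamma in mitochondrial and thermogenic genes, measured 32.1, 19.9 and 36.4 CPM in Egr1+/+ and 58.7, 48.4 and 79.7 CPM in Egr1-/- mice. Its relative *Ppargc1b* measured 14.3, 10.6 and 11.7 CPM in Egr1+/+ and 21.9, 20.1 and 27.2 CPM in Egr1-/- mice. The genotypes did not overlap for either, as for 16.3% of all genes. The log2 fold changes were 1.08 and 0.92 (adjusted p = 0.193 and 0.155 in edgeR, 0.000924 and 0.000292 in DESeq2). *Med1*, the Mediator subunit that PPAR gamma contacts, and the acetylase *Ep300*, named after its value was seen, each had 0.28.

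**Figure D5:**
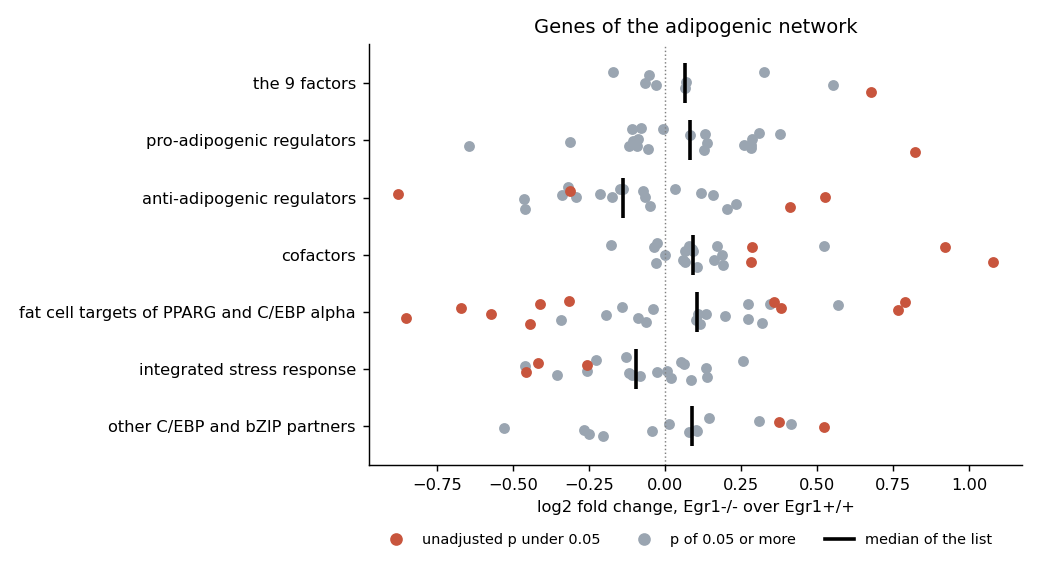
Log2 fold change, Egr1-/- over Egr1+/+, of each tested gene (points) in the 6 lists around the factors, with the list median. Medians lie between -0.14 and 0.11, and the fat cell targets spread from -0.85 to 0.79.

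The 26 fat cell genes known as targets of PPAR gamma and C/EBP alpha lay on both sides of 0. Of these, 14 had higher and 12 lower fitted levels (median log2 fold change 0.11, but 0.0084 to 0.0480 without any 1 mouse other than Egr1-/- replicate 2, and 0.14 without that mouse), and 4 higher and 6 lower had an unadjusted p under 0.05 in edgeR, against 10.7% of all genes in either direction. *Gpd1*, which makes the glycerol phosphate of triglycerides, measured 572, 390.1 and 379 CPM in Egr1+/+ and 750.4, 608 and 958 CPM in Egr1-/- mice. *Dgat2*, which adds the last fatty acid to triglyceride, measured 222, 133 and 129.6 CPM in Egr1+/+ and 258, 241 and 325 CPM in Egr1-/- mice. *Lep*, the gene of the hormone leptin, measured 371, 302 and 352 CPM in Egr1+/+ and 277, 196 and 217 CPM in Egr1-/- mice.

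None of these 3, the lowest in p of the list, overlapped between genotypes, where 16.3% of all genes did not. The log2 fold change was 0.79 for *Gpd1*, 0.77 for *Dgat2* and -0.57 for *Lep* (adjusted p = 0.249, 0.269 and 0.256 in edgeR, and 0.0075, 0.0168 and 0.0186 in DESeq2). The others with an unadjusted p under 0.05 were seen first and named afterwards. The higher ones were the lipase gene *Lipe* (0.36) and *Acsl1* (0.38), which activates fatty acids. The lower ones were *Adipoq* (-0.41), which codes for adiponectin, *Cfd* (-0.67), for adipsin, *Retn* (-0.44), for resistin, *Scd1* (-0.85), for a fatty acid desaturase, and *Me1* (-0.31), for malic enzyme.

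The summed level of 10 fat cell markers, of which 9 are also among the targets or other lists and none was at 0 in all mice, was 10719 to 11904 CPM in Egr1+/+ and 8962 to 10622 CPM in Egr1-/- mice, which fits the labelled tissue. The summed level of 9 beige and brown fat cell markers, of which 1 (*Ppargc1a*) is also a cofactor above, was 561 to 711 CPM in Egr1+/+ and 983 to 1638 CPM in Egr1-/- mice. All 8 that were tested were higher at an unadjusted p under 0.05 in edgeR, against 10.7% of all genes in either direction. After adjustment in DESeq2 7 were higher, against 2.89% of the genes it adjusted. The study had reported *Ucp1*, *Cidea*, *Cox8b*, *Dio2*, *Ppargc1a*, *Pank1* and *Plin5* as higher in these same libraries. Their direction was thus known beforehand and is not separate evidence. Both C/EBP beta and PPAR gamma are known to take part in the thermogenic program. *Cebpb* is also made in macrophages, whose 10 markers summed to 348 to 496 CPM in Egr1+/+ and 276 to 333 CPM in Egr1-/- mice, opposite in direction to *Cebpb*. All 10 macrophage markers had lower fitted levels, and none was at 0 in all mice. Of these, 5 had an unadjusted p under 0.05 in edgeR, against 10.7% of all genes in either direction. The part of beige fat cells and macrophages in the *Cebpb* level was not tested. Skeletal muscle markers summed to 264 to 3966 CPM in Egr1+/+ and 138 to 3087 CPM in Egr1-/- mice, so muscle content varied within both genotypes.

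Of the 20 genes of the integrated stress response, 8 had higher and 12 lower fitted levels (median log2 fold change -0.10, and -0.06 without Egr1+/+ replicate 3), and 3 of 20, all lower, had an unadjusted p under 0.05 in edgeR, close to the 10.7% of all genes. These were the stress cofactor *Nupr1* (-0.46), the serine synthesis gene *Psat1* (-0.42) and *Xbp1* (-0.26), a factor of the unfolded protein response. *Ddit3* itself, a member of this pathway, had 0.07.

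Of 15 further C/EBP and basic leucine zipper genes 14 were tested, since *Cebpe* had at most 12 reads in a mouse. Here 9 had higher and 5 lower fitted levels (median log2 fold change 0.09, but 0.0376 to 0.0408 without Egr1+/+ replicate 1 or 3 or Egr1-/- replicate 1), and 2 of 14, both higher, had an unadjusted p under 0.05 in edgeR, close to the 10.7% of all genes. These were *Tef* (0.38), of the circadian PAR family, and *Junb* (0.52), a subunit of AP-1. *Nfil3*, a repressor that binds the sites of *Tef*, had 0.41.

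Likeness of pattern was measured as the root mean square difference of log2 CPM over the 6 mice, each gene centred on its mean, among the members and list genes. *Cebpb* was closest to *Lipe* (0.197), *Cebpa* (0.208) and *Nfil3* (0.231), beside its own root mean square of 0.392 around its mean. *Pparg* was closest to *Nr3c1* (0.0444), *Tcf7l2* (0.0633) and *Atf5* (0.0713), beside 0.148 of its own. *Gata2* was closest to *Zfpm1* (0.209), *Klf4* (0.217) and *Ctnnb1* (0.255), beside 0.325 of its own. With 6 mice these are descriptions and no test was made.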

How the data were processed

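Inguinal SC-WAT of 3 Egr1+/+ and 3 Egr1-/- mice was profiled by RNA sequencing, and each mouse is a library of its own. The authors aligned reads with TopHat and Bowtie to GRCm38, guided by an earlier GENCODE release than the M21 used here for positions, and deposited raw counts per Ensembl gene, made with featureCounts. Its strand and multimapping settings are not given in the sources used here, and the read layout is described differently in the methods and the sample records. Groups and replicate numbers came from the labels. The methods describe littermates, but no litter is given per mouse.

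Of the 47069 identifiers, 46574 were matched to a gene name. Genes with low counts were removed with filterByExpr, libraries were scaled by TMM, and genotypes were compared with the quasi-likelihood test of edgeR 4.0.16 (R 4.3.3), with Benjamini-Hochberg adjustment over all 17667 genes and a threshold of 0.05. CPM used TMM library sizes. Log2 CPM used a prior count of 2. DESeq2 1.42.0, limma 3.58.1 (voom), other scalings, no filter, removal of mitochondrial genes, a replicate block and leaving out each mouse were alternatives. Fits were tested on simulated data.

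Besides the 9 members and *Egr1*, genes were named as the 3 of lowest p in each list, the 3 most alike in pattern to *Cebpb*, *Pparg* and *Gata2*, and markers of a cell type that moved with a member. The members and lists were chosen with earlier results of these data known. The words TTGCNNAA, TGACG and TATAAA were searched after the EGR1 words had been.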

Additional observations from a re-analysis of the deposited data

How the results depend on the processing

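The log2 fold change of *Cebpb* stayed above 0 in every alternative run, from 0.51 to 0.82 (0.58 to 0.82 with a mouse left out), and its unadjusted p stayed under 0.05 in 14 of 14. Its adjusted p ran from 0.0023 with no filter on low counts to 0.720 without Egr1-/- replicate 3, and was 0.0200 in DESeq2. The number of genes past the adjusted threshold, 3 in edgeR, was 372 in DESeq2, 1 in voom, 0 with upper quartile scaling, 79 with total counts, 552 with no filter and 0 to 59 with a mouse left out (59 without Egr1-/- replicate 1 and 0 without any other). Members at an unadjusted p under 0.05 numbered 2 in DESeq2 (10.1% of all genes), 2 with upper quartile scaling (10.8%), 2 without mitochondrial genes (10.7%), 3 with no filter (7.49%) and 1 to 2 with a mouse left out (6.38 to 12.96%). The second was *Cebpa* in each of the first 3, and *Cebpa* and *Gata3* joined with no filter. It was *Cebpd* without Egr1+/+ replicate 1, *Gata3* without Egr1-/- replicate 1 and *Cebpa* without Egr1-/- replicate 2. Members without overlap numbered 0 under total counts.

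With a mouse left out, values turned sign for *Pparg* (-0.19 to 0.0030), *Rxra* (-0.14 to 0.0315), *Cebpd* (-0.39 to 0.0207), *Cebpg* (-0.0302 to 0.14), *Ddit3* (-0.13 to 0.39) and *Gata2* (-0.28 to 0.12), none of them called with all mice. Total counts turned *Cebpg* to -0.0882 and *Ddit3* to -0.0712. Under the replicate block 0 genes passed and *Cebpb* had 0.67 (adjusted p = 0.234 in edgeR). Deviations of same-numbered mice correlated at -0.0888, 0.106 and -0.126, and 2 of 6 mice correlated best with their own number. So few mice cannot decide whether the numbers pair them. With 3 mice a genotype and at most 130 reads per mouse for the GATA factors, small differences could not be detected.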
